A study of Mus musculus with 8 samples.

Results

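The platelet-derived growth factor (PDGF) ligands and receptors were examined in mouse mammary tumours grown in obese and in lean hosts. The rule was family membership: the ligand genes Pdgfa, Pdgfb, Pdgfc and Pdgfd, the receptor genes Pdgfra and Pdgfrb, and the receptor-like gene Pdgfrl. These 7 genes were found among 50143 gene IDs, and all 7 were among the 14887 genes with enough counts to be tested. Py230, a mouse breast adenocarcinoma cell line, was injected into mammary gland 4 of female C57BL/6 mice, and tumours were taken on day 56. All hosts, lean ones included, had been ovariectomized at 6 weeks of age. Diets began 2 weeks later and were given for 6 weeks before the injection. The hosts of the 4 obese tumours ate high-fat food in which fat made up 60% of the calories. That food had 5.1 kcal/g, and mice gained 35% in body weight on it on average. The hosts of the 4 lean tumours ate regular food with 10% of calories as fat, at 3.6 kcal/g. A single tumour line was used, and each library came from a whole tumour, so it held RNA of the injected cells and of host stroma. The labels do not state outright that each tumour came from a different mouse, so p-values describe the spread between these 8 tumours.

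PDGF ligands are secreted dimers that bind receptor tyrosine kinases on mesenchymal cells. PDGF-A and PDGF-B are cut to their active form inside the cell, whereas PDGF-C and PDGF-D leave it in a latent form with a CUB domain that proteases remove outside. PDGFR-alpha, the product of Pdgfra, binds PDGF-A, PDGF-B and PDGF-C, and PDGFR-beta, the product of Pdgfrb, binds PDGF-B and PDGF-D. In blood vessels, PDGF-B from endothelial cells holds PDGFR-beta-bearing pericytes at the vessel wall. In tumours, fibroblasts of the stroma commonly carry both receptors.

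In short, Pdgfrb and Pdgfra were higher in the obese tumours, 3.49-fold and 2.70-fold, while Pdgfb, Pdgfc and Pdgfd were lower, 3.82-fold, 6.52-fold and 2.85-fold. Pdgfrl was 13.7-fold lower. Pdgfa alone did not pass the test. Of the 7 genes, 6 passed, 2 upward and 4 downward, beside 59.2% of all tested genes that passed, 30.9% upward and 28.4% downward (edgeR quasi-likelihood test, Benjamini-Hochberg adjusted p under 0.05). The groups did not overlap for the same 6 genes, beside 57.0% of all tested genes. With 1 surrogate variable in the fit, 3 of the 7 passed (Pdgfb, Pdgfrb and Pdgfrl), beside 6191 of all 14887 tested genes in that fit.

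Total counts ran from 25.7 to 66.7 M per tumour. Levels are given as counts per 1 M counts (CPM) after TMM scaling. A gene without counts could still have had up to 3, or 0.0494 to 0.124 CPM depending on the tumour, from counting error only. The first principal component of the 1000 most variable genes held 88.6% of the variance. On it the lean tumours lay between 70.2 and 93.7 and obese replicates 1, 2 and 4 between -136 and -96.5, with obese replicate 3 apart from both at 12.9. Of the mammary epithelial markers, Krt18 was at 0.124, 0.115, 128 and 4.32 CPM in obese replicates 1 to 4 and at 224 to 553 CPM in the lean tumours. Epcam was at 0.495, 4.20, 175 and 5.52 CPM against 233 to 539 CPM. Cdh1 was at 3.59, 1.35, 165 and 5.66 CPM against 240.5 to 386 CPM, while Krt8 remained at 58.4 to 267 CPM against 309 to 824 CPM. In obese replicates 1, 2 and 4, 3 of these 4 defining markers of the labelled adenocarcinoma line were thus below 6 CPM, and their part in the results was not tested. Over all genes, scaling moved the balance of calls. TMM gave 4598 upward and 4221 downward calls at a median log2 change of -0.04, upper quartile factors 3612 and 5145 at -0.25, and library size alone 3690 and 5026 at -0.22.

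Start-site windows were used for 4 of the 7 genes, from RefSeq's table for GRCm38.p6, and span 250 bases before to 30 bases after the start. None was used for Pdgfb, Pdgfrb or Pdgfrl. The windows of 3 genes are printed because these genes moved differently: Pdgfa did not pass, Pdgfc had the largest fall of the ligands and Pdgfra rose. They lie at chr5:138994915-138995194 (minus strand), chr3:81036166-81036445 (plus strand) and chr5:75152001-75152280 (plus strand). Each is written 5′ to 3′ on the gene's strand, and capitals mark any match to the motifs searched.
Pdgfa: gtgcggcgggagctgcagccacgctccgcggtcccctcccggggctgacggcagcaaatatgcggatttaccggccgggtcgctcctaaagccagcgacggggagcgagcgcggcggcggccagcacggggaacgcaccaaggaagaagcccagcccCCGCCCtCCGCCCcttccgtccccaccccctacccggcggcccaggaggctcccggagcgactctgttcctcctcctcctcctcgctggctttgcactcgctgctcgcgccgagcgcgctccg
Pdgfc: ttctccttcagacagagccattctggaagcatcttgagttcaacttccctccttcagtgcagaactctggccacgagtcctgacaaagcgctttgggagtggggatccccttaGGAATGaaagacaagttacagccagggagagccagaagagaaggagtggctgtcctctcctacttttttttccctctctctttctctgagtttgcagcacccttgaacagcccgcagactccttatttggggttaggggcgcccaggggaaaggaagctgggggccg
Pdgfra: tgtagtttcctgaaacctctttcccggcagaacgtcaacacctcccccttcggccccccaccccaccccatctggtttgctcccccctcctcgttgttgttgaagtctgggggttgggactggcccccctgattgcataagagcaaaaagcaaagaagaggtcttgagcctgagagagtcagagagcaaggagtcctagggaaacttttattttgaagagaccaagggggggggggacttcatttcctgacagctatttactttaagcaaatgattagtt
The search covered both strands for the GC box GGGCGG, the Zeb and Snail E-box CACCTG, the AP-1 element TGANTCA, the TEAD element GGAATG and the TATA box TATAAA, none of which overlapped in these windows. A second Pdgfa start in the table, at 138994281, is not printed, and its window (67.1% G and C) had 1 GC box 60 bases before the start. The window of Pdgfd, with its start at 6168486, is not printed either. It had 1 TATA box 160 bases before the start and no other match, and the bases after that start were not found in a GENCODE transcript of Pdgfd. The printed Pdgfa window had 2 GC boxes, whose first bases lie 93 and 86 bases before the start, a motif present in 34.7% of 32851 windows. Pdgfc had 1 TEAD element 137 bases before the start, a motif present in 13.9% of windows. Pdgfra had no match, and the E-box, the AP-1 element and the TATA box, present in 19.1%, 7.46% and 13.1% of windows, were in none of the 3 printed windows. G and C made up 73.2% of the Pdgfa window, 53.6% of that of Pdgfc and 51.4% of that of Pdgfra, beside a median of 52.5% over all windows. The RefSeq start of Pdgfra, at 75152251, lies before the GENCODE start of the gene, at 75152292. The bases after this RefSeq start of Pdgfra were not found in a GENCODE transcript of the gene. A match is a string of letters, not a measured binding site.

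Pdgfb (ENSMUSG00000000489, chromosome 15, 79995874 to 80014977, minus strand; GENCODE M21, GRCm38, as for all loci here) encodes the ligand that binds both receptors. Its level was 8.01, 10.7, 12.9 and 14.8 CPM in obese replicates 1 to 4 and 36.2, 56.6, 51.6 and 33.2 CPM in lean replicates 1 to 4. Every obese tumour lay below every lean tumour, and obese replicate 3 lay within the range of its group. The group means were 11.6 ± 2.92 CPM and 44.4 ± 11.4 CPM (SD, n = 4 each). Pdgfb fell by 1.94 ± 0.26 on the log2 scale (SE; edgeR adjusted p = 0.000856). In bulk tumours, fewer cells of a type and less RNA per cell cannot be told apart, here and for each gene below.

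Pdgfc (ENSMUSG00000028019, chromosome 3, 81036416 to 81214040, plus strand) encodes a latent ligand of PDGFR-alpha. It stood at 3.59, 4.25, 64.7 and 5.33 CPM in the obese tumours and at 193.7, 91.8, 109.4 and 113.9 CPM in the lean ones, in replicate order. The groups did not overlap, but obese replicate 3 was far above the other 3 obese tumours and nearer to the lean range. Group means were 19.5 ± 30.2 CPM against 127 ± 45.4 CPM (SD, n = 4 each). Pdgfc fell by 2.70 ± 1.01 (log2, SE), with an edgeR adjusted p of 0.0488, just inside the threshold. Without obese replicate 3 it fell by 4.84 with an adjusted p of 4.91e-05. Leaving out any other tumour ended the call, with falls of 2.35 to 2.83 and adjusted p of 0.0687 to 0.103.

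Pdgfd (ENSMUSG00000032006, chromosome 9, 6168584 to 6378850, plus strand) encodes the latent ligand of PDGFR-beta and was the scarcest ligand. Its values were 0.867, 0.445, 2.22 and 0.960 CPM in the obese tumours and 2.92, 2.59, 3.59 and 3.76 CPM in the lean ones. No obese value reached the lean range, and obese replicate 3 was again the highest of its group. Means were 1.12 ± 0.767 CPM and 3.22 ± 0.555 CPM (SD, n = 4 each). The gene fell by 1.51 ± 0.49 on the log2 scale (SE; edgeR adjusted p = 0.0292). The call was lost without obese replicate 1, obese replicate 4, lean replicate 3 or lean replicate 4, where the adjusted p was 0.0685, 0.0750, 0.0608 and 0.0613, and without obese replicate 3 it fell by 2.08.

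Pdgfa (ENSMUSG00000025856, chromosome 5, 138976014 to 138997370, minus strand) encodes the ligand that acts through PDGFR-alpha alone. Its level was 48.1, 30.9, 27.1 and 31.4 CPM in the obese tumours and 18.0, 47.2, 38.5 and 23.4 CPM in the lean tumours. The groups overlapped across most of their ranges. Means were 34.4 ± 9.35 CPM and 31.8 ± 13.4 CPM (SD, n = 4 each), and the log2 change of 0.11 ± 0.33 (SE) had an edgeR adjusted p of 0.780. The sign of this value depends on the scaling, since upper quartile factors turned it to -0.10 and scaling by library size to -0.08. An antisense transcript, 6330403L08Rik, covers 26.1% of the exonic bases of Pdgfa, and it had 0 counts in all 8 tumours.

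**Figure D1:**
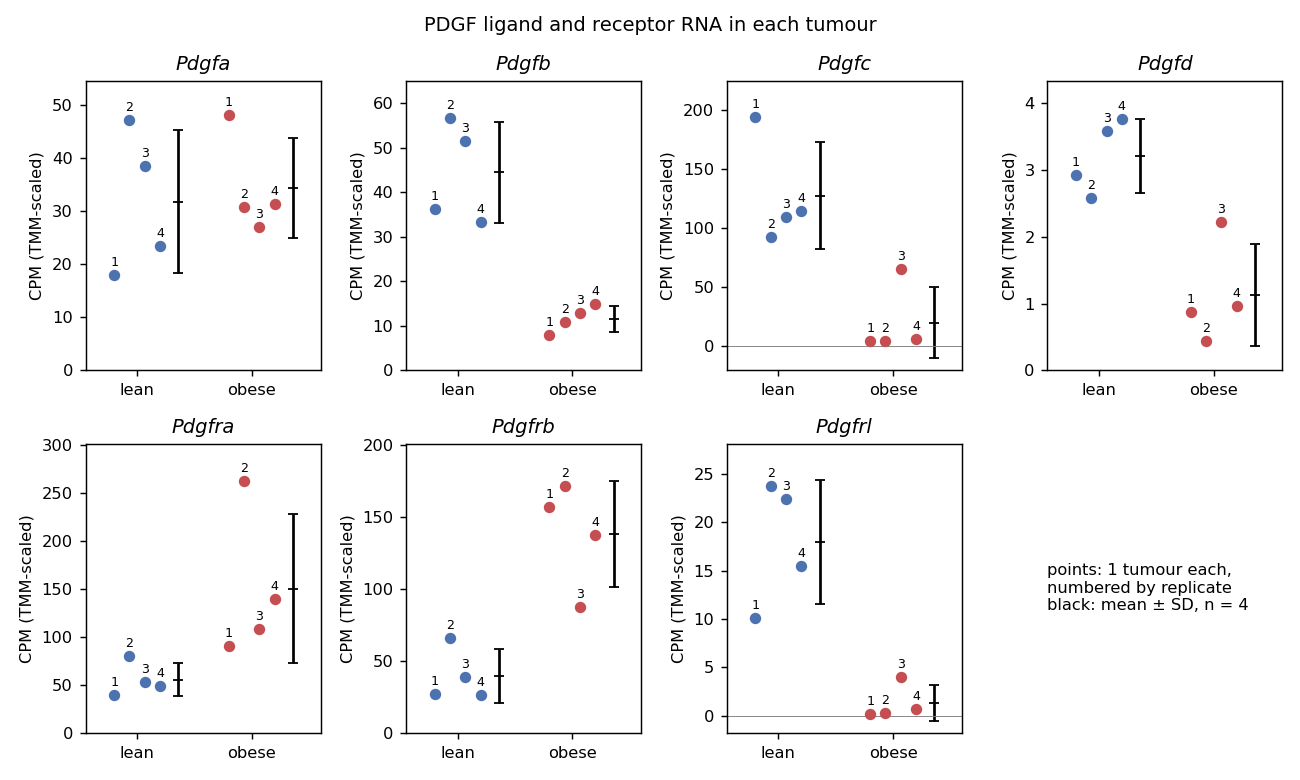
Level of each PDGF gene in each tumour, in TMM-scaled CPM on a linear axis that differs between panels; numbered points are replicates, and black bars are group means with SD (n = 4 each). Obese and lean points overlap for Pdgfa, while for the other 6 genes they do not; obese replicate 3 is at 64.7 CPM for Pdgfc, where the other obese tumours are at 3.59 to 5.33 CPM.

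Both kinase receptors were higher in the obese tumours. Pdgfrb (ENSMUSG00000024620, chromosome 18, 61045150 to 61085061, plus strand) encodes PDGFR-beta, the receptor of pericytes and activated fibroblasts. It was at 157, 171, 87.5 and 137 CPM in obese replicates and at 27.0, 66.0, 39.0 and 26.4 CPM in lean replicates 1 to 4. The lowest obese tumour, replicate 3, was above the highest lean tumour, replicate 2. Means were 138 ± 36.6 CPM and 39.6 ± 18.5 CPM (SD, n = 4 each), and Pdgfrb rose by 1.80 ± 0.35 on the log2 scale (SE; edgeR adjusted p = 0.00380).

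Pdgfra (ENSMUSG00000029231, chromosome 5, 75152292 to 75198215, plus strand) encodes PDGFR-alpha, a receptor typical of fibroblasts and mesenchymal progenitors. Its values were 90.9, 263, 108 and 139.8 CPM in the obese tumours against 39.9, 79.9, 53.4 and 49.3 CPM in the lean ones. The groups did not overlap, although obese replicate 1 and lean replicate 2 were close, and obese replicate 2 was the highest of all. Means were 150.4 ± 77.6 CPM and 55.6 ± 17.1 CPM (SD, n = 4 each). Pdgfra rose by 1.44 ± 0.37 on the log2 scale (SE; edgeR adjusted p = 0.0117). Without obese replicate 2 the change was 1.03 and the call held, and with 1 surrogate variable it was 1.30 with an adjusted p of 0.0560. Genes overlapping 6.50% of its exonic bases held 0 counts, apart from Mir7025 with 1 to 7 counts per tumour.

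Pdgfrl (ENSMUSG00000031595, chromosome 8, 40926212 to 40990785, plus strand) encodes an extracellular protein that resembles the ligand-binding part of the receptors and has no kinase. Its level was 0.206, 0.247, 4.04 and 0.696 CPM in the obese tumours and 10.1, 23.8, 22.4 and 15.5 CPM in the lean tumours. Obese replicate 3 again lay between its group and the lean tumours. Means were 1.30 ± 1.84 CPM and 18.0 ± 6.38 CPM (SD, n = 4 each), and Pdgfrl fell by 3.77 ± 0.99 on the log2 scale (SE; edgeR adjusted p = 0.0132). Without obese replicate 3 it fell by 5.51 (adjusted p = 0.000187). The receptor-like gene thus moved opposite to both kinase receptors.

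**Figure D2:**
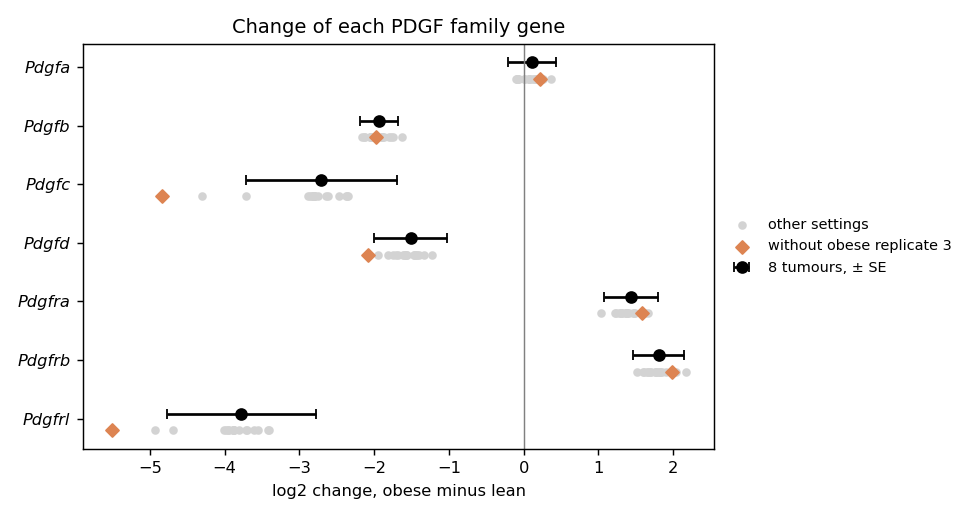
Log2 change (obese minus lean) of each PDGF gene over 8 tumours with its standard error (black), under each of 18 other settings (grey) and without obese replicate 3 (diamond). Pdgfrb and Pdgfra are at 1.80 and 1.44, Pdgfb, Pdgfc, Pdgfd and Pdgfrl are at -1.94, -2.70, -1.51 and -3.77, and the values of Pdgfa lie on both sides of 0, from -0.10 to 0.36; Pdgfc and Pdgfrl lie farthest left without obese replicate 3, at -4.84 and -5.51.

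Dividing by exon length puts the genes on one scale, CPM per kb of exon. On it the order of the mean ligand levels in lean tumours was Pdgfc at 25.0, Pdgfb at 10.7, Pdgfa at 10.2 and Pdgfd at 1.02 CPM per kb. In obese tumours the order of the means was Pdgfa at 11.0, Pdgfc at 3.83, Pdgfb at 2.79 and Pdgfd at 0.356 CPM per kb, an order that no single obese tumour had. In lean tumours the values of Pdgfb and Pdgfa overlapped, whereas Pdgfc was above and Pdgfd below them in every tumour. In obese tumours Pdgfc overlapped both Pdgfa and Pdgfb because of obese replicate 3, and Pdgfd was the lowest within each tumour. Among receptors, Pdgfrb was at 25.2 and Pdgfra at 15.002 CPM per kb in obese tumours, and at 7.23 and 5.55 CPM per kb in lean tumours. The values of both receptors overlapped within each group. Pdgfrl was at 0.415 CPM per kb in obese and 5.75 CPM per kb in lean tumours.

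The share of each ligand in the summed ligand level of a tumour was then compared. Pdgfa made up 84.1%, 73.5%, 34.5% and 67.2% in obese replicates 1 to 4 and 10.8%, 31.8%, 26.1% and 19.2% in lean replicates 1 to 4. Every obese tumour was above every lean one. The mean share was 64.8 ± 21.4% against 22.0 ± 9.04% (SD, n = 4 each), and the difference of 42.9 points had a two-sided exact permutation p of 0.0286, the smallest that 4 against 4 allows. Adjusted over the 5 shares tested this p became 0.143, the smallest adjusted value possible here unless several shares reach the lower limit together, so the difference did not pass. Pdgfc made up 3.85%, 6.21%, 50.4% and 6.99% of the obese sums and 71.2%, 37.9%, 45.4% and 57.3% of the lean sums. Obese replicate 3 therefore had a lean-like Pdgfc share, and the difference of -36.0 points had an exact permutation p of 0.0857 (adjusted 0.214).

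The shares of Pdgfb and Pdgfd were closer between the groups. Pdgfb made up 16.4 ± 6.16% of ligand RNA in obese and 22.9 ± 5.57% in lean tumours (SD, n = 4 each; exact permutation p = 0.171, adjusted 0.25). Pdgfd made up 1.84 ± 0.751% and 2.23 ± 0.637% (SD, n = 4 each; exact permutation p = 0.514). Within the receptor pair, Pdgfra made up 24.1%, 45.6%, 40.3% and 35.8% in obese tumours and 44.7%, 39.8%, 42.8% and 50.5% in lean tumours. The ranges overlapped, and the difference of -8.00 points had an exact permutation p of 0.2 (adjusted 0.25).

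As a description, the summed ligand level was 18.3, 13.5, 25.2 and 14.98 CPM per kb in the obese tumours and 53.5, 47.6, 47.4 and 39.1 CPM per kb in the lean tumours. The summed level of Pdgfra and Pdgfrb was 37.7, 57.5, 26.8 and 39.0 against 8.91, 20.0, 12.4 and 9.74 CPM per kb. The ratio of receptors to ligands was 2.05, 4.27, 1.06 and 2.60 in obese and 0.167, 0.420, 0.262 and 0.249 in lean tumours. On this scale receptor RNA thus exceeded ligand RNA in each obese tumour and was below it in each lean tumour. Obese replicate 3 was the nearest to parity. The place of parity depends on the length used, as coding bases are 641 of 3119 exonic bases for Pdgfa and 3309 of 5478 for Pdgfrb. The comparison with parity above was made with exon length only. With coding length, receptor RNA was below ligand RNA in obese replicates 1 and 3, so the statement for each obese tumour does not hold on that scale.

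**Figure D3:**
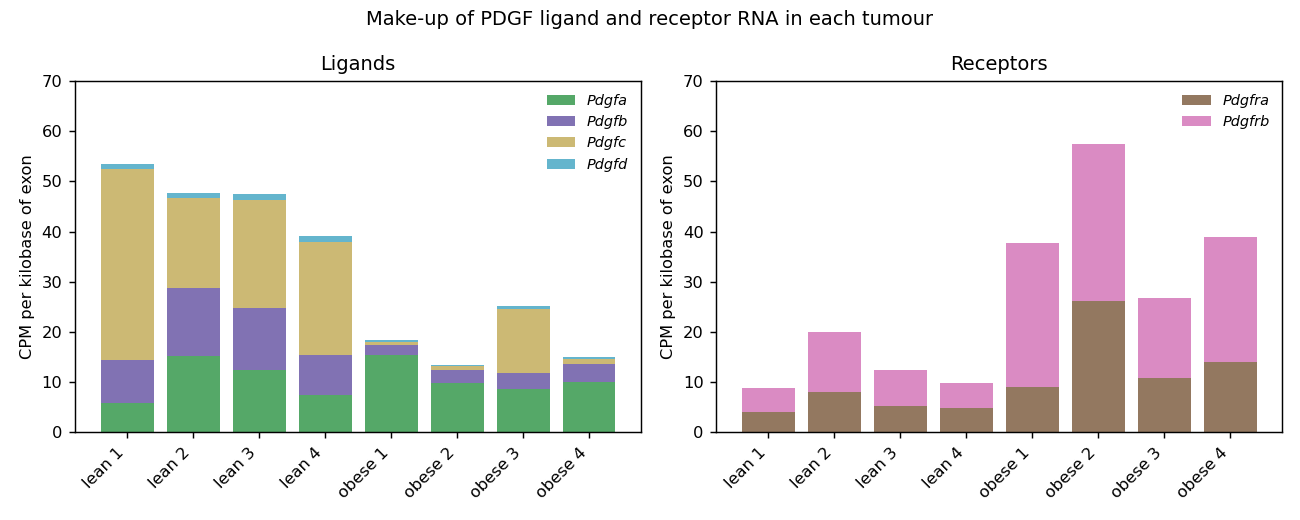
Levels of the 4 ligands and of the receptors Pdgfra and Pdgfrb in each tumour, in CPM per kb of exon, stacked. Pdgfc takes up most of the ligand bar in lean replicates 1 and 4 (71.2% and 57.3%), Pdgfa most of it in obese replicates 1, 2 and 4 (84.1%, 73.5% and 67.2%), and obese replicate 3 has 50.4% Pdgfc.

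Markers of the cell types that use this pathway also differed between the groups. Their counts below stand beside 59.2% called, 30.9% upward and 28.4% downward, over all tested genes. Of 11 pericyte markers, 9 fell and none rose, with a median log2 change of -1.85 beside -0.04 over all tested genes. Their summed level was 42.0 to 99.9 CPM in obese and 228 to 369 CPM in lean tumours, while Pdgfrb, itself carried by pericytes, was higher. Mcam was the largest part of this sum in each tumour, at 24.9 to 52.7 CPM in obese and 92.6 to 167 CPM in lean ones. The groups overlapped for Rgs5 (3.22 to 7.53 against 6.06 to 61.7 CPM), Abcc9 and Cox4i2, and Cspg4 and Des did not pass. The sum is therefore not a measure of the number of pericytes. Notch3, a receptor of mural cells, fell by 3.79 ± 0.66 (log2, SE; edgeR adjusted p = 0.00263), from 36.4 to 86.6 CPM in lean tumours to 1.53 to 11.2 CPM in obese ones. Vtn, Mcam and Kcnj8 fell by 2.14, 1.68 and 2.47. Without lean replicate 3, 5 of the 11 fell. Of the smooth muscle markers 6 of 8 fell, with log2 changes of -3.75, -2.65, -7.62 and -4.79 for Lmod1, Tagln, Cnn1 and Myh11, but the summed levels overlapped (175 to 311 against 160.5 to 2848 CPM), and 3 fell without obese replicate 2 or without lean replicate 2. With limma-voom 3 of these 8 fell, and 2 with quality weights, where Cnn1 and Myh11 both lost their calls. Myh11 also lost its call without obese replicate 1, obese replicate 2 or lean replicate 2, and its change was -2.19 without the last.

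Endothelial cells are a usual source of PDGF-B. Of 13 endothelial markers 7 fell and none rose (53.8% called, near the share over all genes), with a median of -0.90, and the summed level was 224 to 249 CPM in obese and 222 to 456 CPM in lean tumours, which overlap. Lean replicate 1, at 222 CPM of endothelial markers, had 36.2 CPM of Pdgfb. The obese tumours, at 224 to 249 CPM, had 8.01 to 14.8 CPM of Pdgfb. This is 1 lean tumour, and its markers differed from those of the obese tumours in both directions. Kdr was at 12.4 CPM in it and at 23.9 to 33.3 CPM in obese tumours, and Tie1 at 16.5 against 8.55 to 14.7 CPM. A like sum is therefore not a measure of like endothelial content. Sox17, Tie1, Egfl7 and Tek fell by 1.63, 1.16, 0.63 and 1.29. The count rests on individual tumours: 3 fell without obese replicate 1 or lean replicate 2, and 4 without obese replicate 4, lean replicate 3 or lean replicate 4. It was 3 with 1 surrogate variable, and Tek lost its call there, without obese replicate 1 and without lean replicate 2. Egfl7 lost its call when 1 surrogate variable, or a correction for GC content and length, was included. Platelets store PDGF, and of their 4 tested markers Pf4 and Ppbp rose by 2.58 and 4.45 and Gp1bb and Itga2b fell (log2 changes of -3.23 and -2.08). Gp1bb, a platelet glycoprotein, had no obese value above 0.0720 CPM. The summed platelet markers were at 13.9 to 94.5 CPM in obese and 13.5 to 22.8 CPM in lean tumours, and 1 rather than 2 of them rose without lean replicate 3 or without lean replicate 4. With limma-voom 0 rose, as Pf4 and Ppbp both lost their calls.

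Among 15 tested fibroblast markers 9 fell and 3 rose, with a median of -1.32, and Tcf21 was at 0 throughout. Thy1, Col15a1 and Mfap5 fell by 1.40, 1.40 and 1.95, and Gsn rose by 1.17. Summed fibroblast markers were at 1749 to 5446 CPM in obese and 1483 to 2252 CPM in lean tumours, which overlap. Col3a1, the largest part of this sum, rose by 1.73, from 426 to 626 CPM in lean tumours to 813 to 3539 CPM in obese ones. Dcn and Lum, among the 9 that fell, did so by 1.72 and 1.32. Of 11 macrophage markers 5 rose, among them Itgam, Fcgr1, Adgre1 and Cd68 by 2.99, 1.92, 1.22 and 1.41, and 1, Csf1r, fell by 0.54, with a median of -0.30. The other 5 had changes below 0 that did not pass, such as C1qa at -0.75 and Lyz2 at -0.61. Summed macrophage markers were at 2002 to 2490 against 1302 to 3434 CPM. Without lean replicate 2, 5 macrophage markers fell, and none fell when any other tumour was left out. All 10 lymphocyte markers fell (14.3 to 56.8 against 110.4 to 209 CPM), with log2 changes of -4.53, -3.82 and -2.19 for Ms4a1, Cd79a and Cd3e. Of the mammary epithelial markers 6 of 10 fell (66.3 to 836 against 2136 to 3104 CPM), with log2 changes of -7.73, -6.20, -4.60 and -4.80 for Krt19, Krt5, Cldn4 and Krt14. Krt19 lost its call with limma-voom, with and without quality weights, and all 10 epithelial markers fell without obese replicate 3. Of 6 Schwann and neural markers 5 fell (1.24 to 9.05 against 36.9 to 264 CPM), with log2 changes of -5.05, -6.11 and -6.09 for Cspg5, S100b and Sox10, and Olig2 was at 0 in every tumour. Of 9 adipocyte markers Cfd and Adrb3 fell by 2.42 and 3.21, a count that ran from 0 to 7 as single tumours were left out (7 without obese replicate 4, and 0 without obese replicate 1, lean replicate 2 or lean replicate 3). The part of any of these cell types in the changes of the PDGF genes was not tested.

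**Figure D4:**
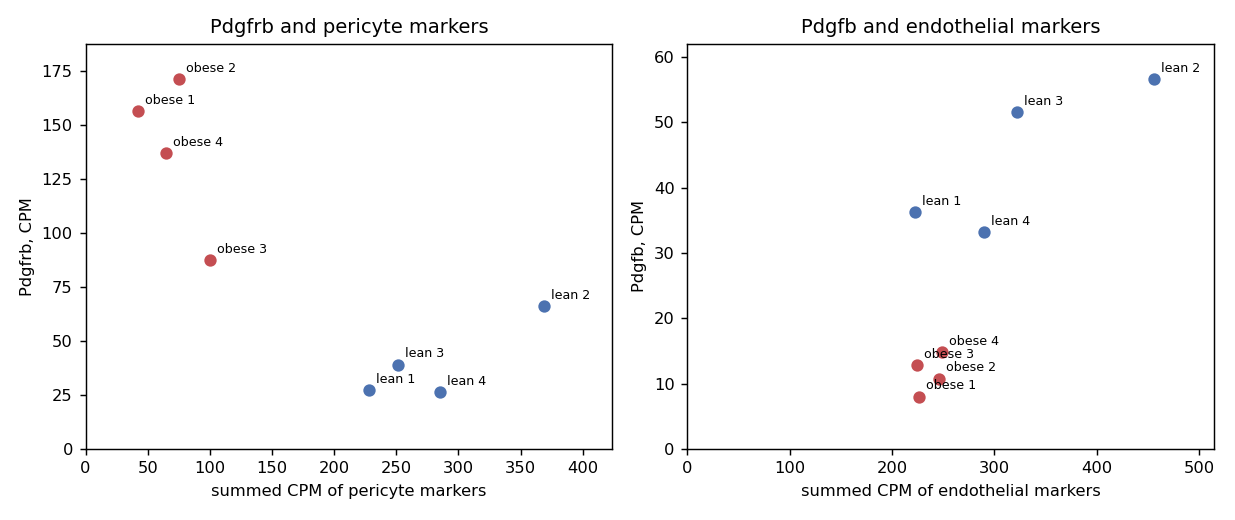
Pdgfrb against summed pericyte markers (left) and Pdgfb against summed endothelial markers (right), both axes in CPM; each point is a tumour. Obese tumours have 42.0 to 99.9 CPM of pericyte markers and lean ones 228 to 369 CPM, with Mcam the largest part in each tumour. Endothelial sums overlap, and lean replicate 1, at 222 CPM of endothelial markers, has 36.2 CPM of Pdgfb.

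The genes around the receptors were counted from 5 lists, beside 59.2% called over all tested genes. In ligand processing and retention, 3 of 11 tested genes rose and 4 fell (63.6% called, near the share over all genes; median -0.76), and Plg was not tested. Of the proteases that release latent ligands outside the cell, Plat, tissue plasminogen activator, which cuts PDGF-C, and Plau, urokinase, which cuts PDGF-D, rose. Plat was at 72.1, 73.8, 80.6 and 98.7 CPM in obese and 25.3, 46.9, 31.7 and 22.1 CPM in lean tumours, a rise of 1.37 ± 0.25 (log2, SE; edgeR adjusted p = 0.00291). Plau was at 191, 82.7, 172 and 150 CPM against 62.5, 48.6, 47.6 and 51.1 CPM, a rise of 1.51 ± 0.25 (edgeR adjusted p = 0.00220). For both proteases the groups did not overlap. St14, matriptase, which can also cut PDGF-D, was at 3.55, 1.32, 113 and 6.22 CPM against 319, 118, 267 and 339 CPM (log2 change -3.06 ± 1.34; edgeR adjusted p = 0.0796), and did not pass although the groups did not overlap. The proprotein convertases Pcsk6 and Pcsk7, of the family that cuts PDGF-A and PDGF-B, fell by 3.76 ± 0.59 and 1.19 ± 0.21. Furin, the best known of them, had a log2 change of -0.14 ± 0.27 (edgeR adjusted p = 0.665).

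Of 25 receptor adaptors and signal enzymes 8 rose and 5 fell (52.0% called, below the share over all genes; median -0.14). The docking proteins Gab1 and Gab2 rose by 1.77 ± 0.18 and 1.34 ± 0.17, Pik3ca, a catalytic subunit of PI3-kinase, rose by 1.13 ± 0.17, and the adaptor Nck2 fell by 1.57 ± 0.28 (log2, SE). Pik3r1, a regulatory subunit that docks on the receptors, fell by 2.46 ± 0.61 (edgeR adjusted p = 0.0111), a gene singled out after its value was seen. The number that fell was 3 without obese replicate 1, obese replicate 4 or lean replicate 3, 8 with library size alone, and 9 with upper quartile factors, voom quality weights or DESeq2. Among 15 phosphatases and turnover genes 5 rose and 2 fell (46.7% called, below the share over all genes; median 0.23). The ubiquitin ligases Cbl and Cblb, which mark active receptors for degradation, rose by 1.68 ± 0.25 and 1.21 ± 0.20. Slc9a3r1 and Slc9a3r2, scaffold proteins that bind the receptor tail, fell by 2.15 ± 0.40 and 2.75 ± 0.65. The number that rose was 3 without obese replicate 2 or obese replicate 4, and 2 without lean replicate 1, lean replicate 3 or lean replicate 4, or with upper quartile or library size scaling.

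Of 15 genes known to be induced by PDGF in cultured fibroblasts, 7 rose and 5 fell (80.0% called; median 0.83, or -0.34 with voom and sample quality weights). Myc, a transcription factor of growth, was at 577, 746, 336 and 625 CPM in obese and 103, 91.4, 88.3 and 77.1 CPM in lean tumours, a rise of 2.67 ± 0.25 (log2, SE; edgeR adjusted p = 0.000269). Ccl2 and Ccl7, chemokines that attract monocytes, rose by 4.04 ± 0.60 and 2.71 ± 0.54, and Ier3, an early response gene, rose by 1.92 ± 0.38. Egr1, an immediate early transcription factor, went the other way and fell by 3.01 ± 0.60 (edgeR adjusted p = 0.00449), a gene singled out after its value was seen. The number that fell was 3 without obese replicate 4. Many other signals induce these genes as well. Among 7 relatives of the class III receptor family and their ligands, 2 rose and 3 fell (71.4% called; median 0.21). The ligands Il34 and Csf1 rose by 2.75 ± 0.30 and 1.22 ± 0.23, while the receptors Kit and Flt3 fell by 3.17 ± 0.81 and 0.96 ± 0.28. Without lean replicate 3, 1 of the 7 fell.

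**Figure D5:**
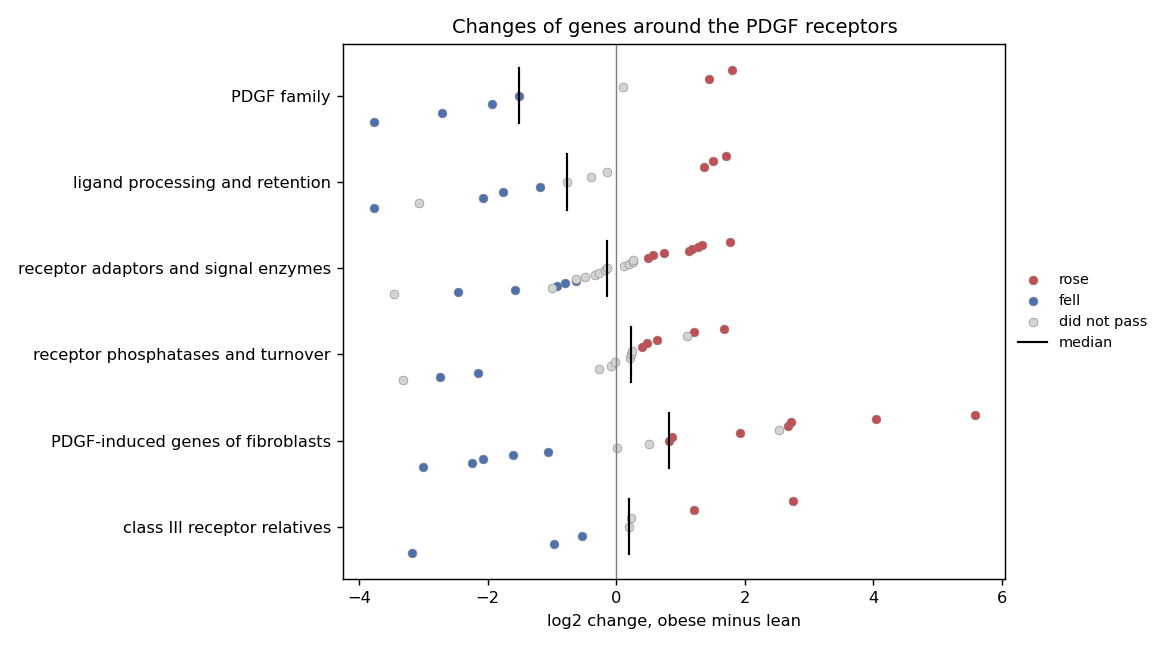
Log2 change (obese minus lean) of every tested gene of the PDGF family and of the 5 lists around it; red points rose, blue points fell, light grey points did not pass, and black lines are medians. Genes lie on both sides of 0 in each row, and the medians of the 5 lists are -0.76, -0.14, 0.23, 0.83 and 0.21 beside -0.04 over all tested genes.

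The genes whose log2 CPM followed each member most closely over the 8 tumours were taken from 14002 named candidates. For Pdgfb these were Gp1bb, Samd15 and Gpr153 (Pearson r 0.993, 0.992 and 0.990). Gp1bb and Samd15 had means of 0.0366 and 0.124 CPM in obese tumours, at or near the floor of 3 counts, so their r rests on very few counts there. For Pdgfc they were Slc16a12, Ptpn3 and Mpzl2 (0.996 each), for Pdgfd Nsun4, Klrc2 and Pbxip1 (0.996, 0.994 and 0.994), and for Pdgfrl Cdkn2a, Eda and Sardh (0.998 each). Pdgfrb was followed by Mtdh, Zeb1 and Cpne2 (0.994, 0.993 and 0.993), and Pdgfra by Glg1, Cd2ap and Nbeal1 (0.991, 0.990 and 0.990). Pdgfa had lower values, with Speg, Chsy1 and Babam2 at 0.926, 0.923 and 0.916. The tumours fall into groups, which by themselves produce high values, so each r describes these 8 libraries only. After removal of the group means, r of the leading gene was 0.940 for Pdgfb, 0.989 for Pdgfc, 0.991 for Pdgfd, 0.990 for Pdgfrl, 0.977 for Pdgfrb, 0.974 for Pdgfra and 0.924 for Pdgfa. Each leading gene was picked for the highest r in the same 8 tumours out of 14002 candidates. Such a choice by itself favours high values, so they do not show a likeness beyond the groups. Between members, r after removal of the group means was 0.813 for Pdgfc with Pdgfd and 0.832 for Pdgfc with Pdgfrl, 3 genes in which obese replicate 3 was the highest obese tumour. It was 0.640 for Pdgfra with Pdgfrb and 0.197 for Pdgfb with Pdgfc.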

How the data were processed

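Whole Py230 tumours, 4 from obese and 4 from lean mice, were snap-frozen, and total RNA was made into stranded TruSeq libraries, per the labels' protocols. The authors deposited raw counts, the whole number of reads per Ensembl gene with 1 column per tumour. The submitters' processing notes list the aligner STAR 2.5.2b, the counter HTSeq, the trimmer cutadapt 1.12, the converters bcl2fastq 2.18.0.12 and CASAVA 1.8, and the build mm10. Which annotation and strand setting the counting used is not given in the sources used here. Without the strand setting, reads of overlapping antisense genes cannot be told apart from those of a member.

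For symbols, loci and exon lengths GENCODE M21 was used (GRCm38, on which mm10 rests), where 49412 of 50143 IDs had a symbol. Genes were kept by edgeR's filterByExpr (minimum count 10, minimum total 15), scaled by TMM and tested with edgeR 4.0.16 (R 4.3.3), obese against lean, by the robust two-sided quasi-likelihood F test, with Benjamini-Hochberg adjustment over all 14887 tested genes and a threshold of 0.05. The fit was tested on simulated data with 200 changed genes. That simulation had far fewer changes than the 59.2% of genes called here and no tumour that stood apart, so it does not cover these features of the data. Total counts of 25.7 to 66.7 M per tumour set the precision of low genes. Shares used CPM per kb of exon and the exact two-sided permutation test over 70 assignments. Start-site windows came from a RefSeq table.

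The members and the gene lists were chosen with earlier results of these data known. Named beside the members were up to 4 genes per list past the threshold with the smallest p, and the 3 genes most correlated with each member. A few of the genes so chosen are not reported here. Alternatives were other scaling factors (DESeq2 1.42.0, upper quartile, library size), other filters, DESeq2, limma-voom (limma 3.58.1) with and without quality weights, 1 surrogate variable (sva 3.50.0), offsets for GC content and length, and leaving out each tumour.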

Additional observations from a re-analysis of the deposited data

Results flagged for a closer look

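In groups of 4 tumours, a highest or lowest value that stands far from the other 3 was looked for in 54 groups of values. It was found in 5, where chance would give about 2.7 if every group held normally distributed values. The groups are not independent, as the level and the share of Pdgfc in obese replicate 3 are both counted, so no conclusion is drawn from these numbers. In 3 of these the value is obese replicate 3 in a PDGF measure. Its Pdgfc level was 64.7 CPM, with the other obese tumours at 3.59 to 5.33 CPM. Its Pdgfrl level was 4.04 CPM, with the others at 0.206 to 0.696 CPM. Its share of Pdgfc in ligand RNA was 50.4%, with the others at 3.85% to 6.99%. The same tumour had the highest sum of Schwann and neural markers of its group, 9.05 CPM beside 1.24 to 2.18 CPM. Lean replicate 1 had the highest sum of mammary epithelial markers, 3104 CPM beside 2136 to 2231 CPM. Obese replicate 3 was within the range of its group for Pdgfb and was the lowest of it for Pdgfrb and Pdgfa.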

How the results depend on the processing

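Every alternative was refitted for all 7 genes, 18 in all. The log2 changes of Pdgfb, Pdgfrb and Pdgfrl kept their direction and stayed past the threshold in all 18. That of Pdgfa, never past it, became negative under 6 settings: -0.097 for upper quartile factors, -0.084 if scaled by library size only, -0.090 given 1 surrogate variable, and -0.081, -0.070 and -0.0024 on leaving out obese replicate 1, lean replicate 1 or lean replicate 4. It ran up to 0.36 as single tumours were left out. With 1 surrogate variable the changes of Pdgfc, Pdgfd and Pdgfra were -2.62, -1.33 and 1.30 (edgeR adjusted p 0.108, 0.0995 and 0.0560). In that fit 3 members passed, beside 6191 of all 14887 tested genes. Without a filter on low counts Pdgfc was at -2.64 and lost its call (adjusted p 0.0705). Leaving out single tumours moved Pdgfc from -4.84 to -2.35 and Pdgfd from -2.08 to -1.23.

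The number of genes past the threshold among the phosphatases and turnover genes was 4 for upper quartile factors, again 4 if scaled by library size only, and 11 with limma-voom and quality weights, and 4 to 8 as single tumours were left out. With 1 surrogate variable it was 7 for the PDGF-induced genes and 3 for the class III relatives, which gave 3 to 5 as single tumours were left out. Over all 14887 tested genes, 8819 passed in the main fit, 6191 given 1 surrogate variable and 11405 under voom quality weights. The list counts in those settings thus moved in the same direction as the total. Upper quartile factors gave a total of 8757 and scaling by library size 8716, near that of the main fit. The total ran from 7143 (without lean replicate 3) to 9833 (without obese replicate 3) as single tumours were left out. The cause of the shifts in the lists was not tested. Each of the 5 shares kept the sign of its difference with coding length, without division by length and on leaving out each tumour. No paired analysis was possible because the labels give no pairing of the tumours. With 4 tumours per group, and 3 counts as the floor, Pdgfd in obese tumours and Pdgfrl in obese tumours rest on the fewest counts.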

Other observations

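The kinase receptor genes of this family sit beside relatives on the chromosome, and these neighbours were looked at after their values were seen. Kit, the stem cell factor receptor, lies 376.7 kb from Pdgfra on the same strand of chromosome 5 (75574916 to 75656722), with 0 protein-coding genes between them. Kit was at 4.29, 9.33, 55.9 and 7.85 CPM in obese and 135, 151, 205 and 208 CPM in lean tumours, and fell by 3.17 ± 0.81 (log2, SE; edgeR adjusted p = 0.0123) where Pdgfra rose by 1.44 ± 0.37. Kdr, the next receptor along at 734.6 kb, had a log2 change of 0.07 ± 0.38 (edgeR adjusted p = 0.880). Csf1r, the macrophage receptor, lies 15.54 kb from Pdgfrb on chromosome 18 (61100598 to 61132149), again with 0 coding genes between. It was at 109, 122, 137 and 144 CPM in obese and 170, 131, 201 and 242 CPM in lean tumours, which overlap, and fell by 0.54 ± 0.20 (log2, SE; edgeR adjusted p = 0.0428) where Pdgfrb rose by 1.80 ± 0.35. The call of Csf1r was lost when any tumour other than lean replicate 2 was left out.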
